A study of Mus musculus with 2 samples.

Results

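The data were single-cell RNA sequencing of cells sorted from AT3 mammary tumors, and the genes described here are 9 members of the TGF-beta pathway, chosen by name out of 32285 genes in the files: the ligands Tgfb1, Tgfb2 and Tgfb3, the receptors Tgfbr1 and Tgfbr2, the ligand-activating integrin chain Itgb8, the inhibitors Smad7 and Skil, and the target Tgfbi. All 9 were present in both libraries. AT3 is a mouse mammary carcinoma line grown in syngeneic C57BL/6J animals. One library came from Pgd fl/fl mice, labelled WT, which carry the floxed Pgd alleles without Cre, and the other from Pgd fl/fl LysMCre mice, labelled 6PGDKO, in which Cre is driven by the lysozyme M gene and recombines Pgd in macrophages, neutrophils and part of the monocytes and dendritic cells. Pgd encodes 6-phosphogluconate dehydrogenase of the pentose phosphate pathway. Both genotypes were female and 6 to 12 weeks old, and tumors were taken 30 days after injection. Each library pools 10 mice, so there is 1 library per genotype and no replicate: no test of genotype was possible, and every interval below is a 95% interval that covers counting error only. The comparison of the genotypes asks how loss of the enzyme in myeloid cells alters the tumor's immune cells.

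TGF-beta is secreted as a latent dimer that stays wrapped in its own propeptide until an integrin, a protease or thrombospondin frees it. The free ligand binds TGFBR2, which recruits and phosphorylates TGFBR1, and SMAD2 and SMAD3 then carry the signal to the nucleus. Smad7 and Skil are themselves switched on by the signal and feed back on it. In tumors the pathway is known for restraining T cells, for supporting regulatory T cells and for shaping macrophages.

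After removal of barcodes with under 500 or over 7500 genes or more than 15% mitochondrial UMIs, 3565 of 3728 Pgd fl/fl barcodes and 2798 of 3014 Pgd fl/fl LysMCre barcodes remained, with a median of 5554 and 7926 UMIs (unique molecules). No barcode was shared, and in every kept cell the multiplexing oligo of its own library had the highest count of the 12. Clustering gave 19 clusters, all of which could be named from marker lists, in 17 cell types. The 9 genes were kept out of the genes used for clustering. Macrophages numbered 745 and 779 cells, classical monocytes 130 and 330, dendritic cells (DCs) 202 and 284, T cells 1696 and 1067 and B cells 566 and 35, the Pgd fl/fl library first. The labels name both a CD45+ and a CD11b+ sort. T and B cells, which lack CD11b for the most part, were abundant, and 72 and 97 cells with epithelial markers, named epithelial tumor cells here, passed the gate. Pgd itself, the targeted gene, was at 104 and 29.8 UMIs per 1000000 (CPM) in all macrophages, a log2 ratio of LysMCre over control of -1.81 (interval -2.00 to -1.62). In classical monocytes the ratio was -1.32 (-1.72 to -0.93), and in all T cells Pgd was at 25.6 and 30.6 CPM, with a ratio of 0.26 (-0.01 to 0.53). Epithelial tumor cells also had less Pgd in the LysMCre library, at 56.2 and 32.9 CPM (48 and 44 UMIs, -0.77, -1.39 to -0.15). The cause of that difference was not tested.

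The clearest difference between the genotypes among the 9 genes was in macrophages. Tgfbi, which encodes a secreted matrix protein induced by TGF-beta, and Tgfb3, the ligand that macrophages carried more of than any other abundant cell type, were both at a lower level in the LysMCre library. In all macrophages their log2 ratios were -0.49 and -0.55, short of 1.5-fold, which 10.0% of genes passed. In C1q macrophages, the largest group, they were -0.40 and -0.36, and -0.23 and -0.15 with each cell thinned to 2000 UMIs. The mix of macrophages differed between the libraries, with 66 and 77 cycling cells and 15 and 49 cells of a cluster led by Retnla. The part of this mix in the values of all macrophages was not tested. Itgb8 was the only member past 1.5-fold in all macrophages (1.00), from 43 and 101 UMIs. Without cells that held markers of another lineage, 5 and 3 of its UMIs were left and the ratio was -0.61. Tgfb1, both receptors, Smad7 and Skil differed between the macrophages of the libraries by less than 1.2-fold. The remaining structure was by cell type. Tgfbr1 was highest in C1q and cycling macrophages, Tgfbi in monocytes and macrophages, Itgb8 in regulatory T cells and Smad7 in lymphocytes. Tgfb1 was found nearly everywhere.

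The promoters of Tgfbi and Itgb8 are shown because most UMIs of each lay in 1 lineage, macrophages with monocytes for Tgfbi and T cells for Itgb8. They are the 250 bases before the RefSeq start of each gene (build GRCm38.p6, which is the mm10 of the files), 5′ to 3′ on the gene's strand: chr13:56609336-56609585 on the plus strand for Tgfbi and chr12:119238277-119238526 on the minus strand for Itgb8. Capitals mark CAGAC, the SMAD box that SMAD3 and SMAD4 can bind, on either strand.
Tgfbi: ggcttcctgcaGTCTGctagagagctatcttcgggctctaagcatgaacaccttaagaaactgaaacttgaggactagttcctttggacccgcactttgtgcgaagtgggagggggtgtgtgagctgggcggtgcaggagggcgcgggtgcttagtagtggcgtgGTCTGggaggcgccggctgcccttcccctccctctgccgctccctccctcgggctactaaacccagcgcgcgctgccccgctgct
Itgb8: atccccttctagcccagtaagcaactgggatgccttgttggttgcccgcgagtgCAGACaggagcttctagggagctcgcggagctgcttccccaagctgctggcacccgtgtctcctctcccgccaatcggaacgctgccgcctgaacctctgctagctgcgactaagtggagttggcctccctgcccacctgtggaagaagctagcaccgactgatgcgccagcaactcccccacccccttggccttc
The Tgfbi window held 2 matches, at bases 12 and 166, and the Itgb8 window 1, at base 55. Of 32851 promoter windows of this length, 42.2% held at least 1 match and 11.7% at least 2, so the motif is common and its presence here is a description only. The genes themselves lie at chr13:56609586-56639359 (Tgfbi), chr12:119162803-119238276 (Itgb8), chr7:25687002-25705077 (Tgfb1), chr1:186622787-186709697 (Tgfb2), chr12:86056743-86079041 (Tgfb3), chr4:47353222-47414926 (Tgfbr1), chr9:116087695-116175363 (Tgfbr2) and chr3:31095058-31122923 (Skil). All are protein-coding genes, and the counts are over the whole gene.

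**Figure D1:**
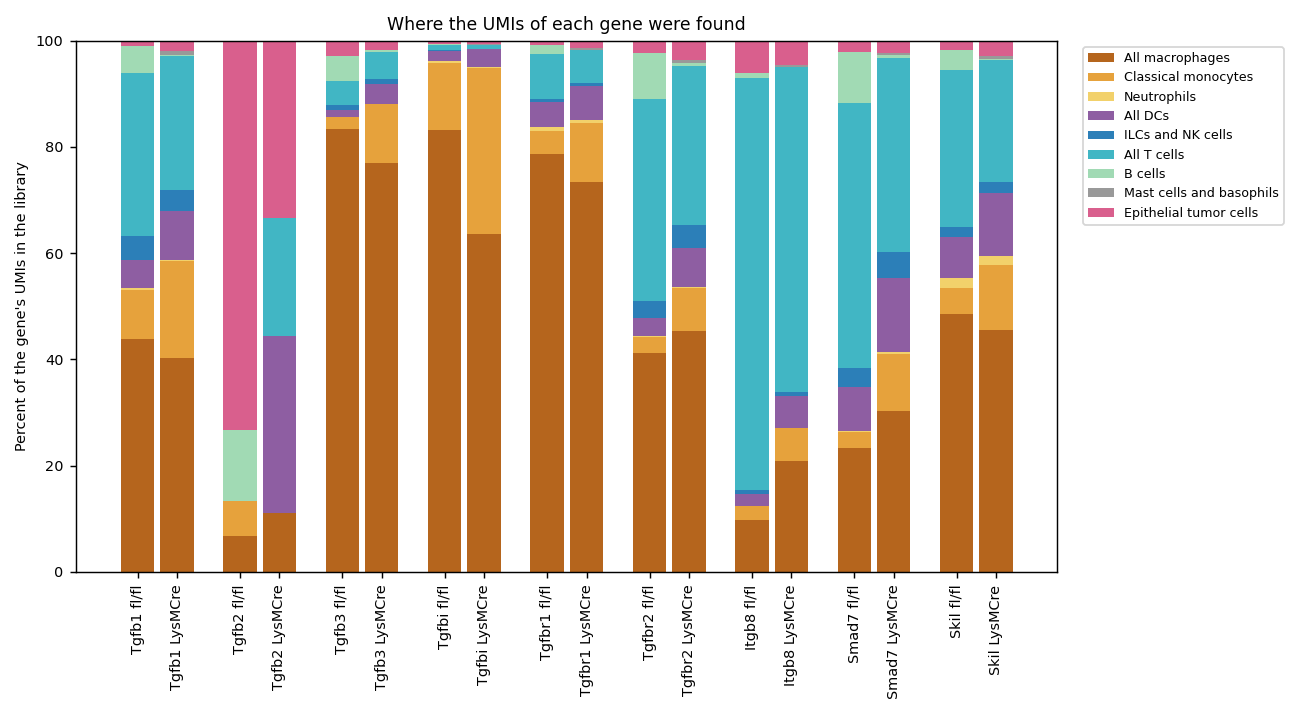
Share of each gene's UMIs (vertical axis, percent) found in each cell class, with 1 bar per gene and library (fl/fl, Pgd fl/fl; LysMCre, Pgd fl/fl LysMCre). Macrophages held 83.2% and 63.6% of all Tgfbi UMIs and T cells held 77.6% and 61.2% of Itgb8 UMIs; the shares also follow how many cells of each class a library holds, and the Tgfb2 bars rest on 15 and 9 UMIs.

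Tgfb1, the main ligand of immune cells, was the broadest member, with 4158 and 5278 UMIs. In the Pgd fl/fl library its level was 288 CPM in classical monocytes, 243 in innate lymphoid and NK cells, 227 in CD4 effector T cells, 226 in regulatory T cells and 202 in C1q macrophages. In the LysMCre library the cluster named mast cells and basophils, 16 cells that had no counterpart in the other library, stood first at 334 CPM from 38 UMIs. It was led by the mast cell protease genes Mcpt2, Mcpt1 and Cma1, and Mcpt8, the basophil gene of its marker list, had no UMI. Regulatory T cells followed at 263 CPM, innate lymphoid and NK cells at 259, CD4 effector T cells at 257 and monocytes at 246. The intervals of neighbours in these orders overlapped. Naive T cells were at the low end, with 47.7 and 57.0 CPM, as were mature DCs in the Pgd fl/fl library, with 48.5 CPM. The innate lymphoid and NK cells also held T cell RNA. Their 5 T cell markers summed to 2737 and 2450 CPM, against 764 and 1024 CPM for the 5 innate lymphoid and NK cell markers.

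Between genotypes, Tgfb1 was level in all macrophages (199 and 198 CPM, log2 ratio 0.00, interval -0.09 to 0.09) and lower in LysMCre monocytes (ratio -0.23, -0.40 to -0.06). It was higher in LysMCre mature DCs, at 48.5 against 94.6 CPM (38 and 119 UMIs, ratio 0.96, 0.43 to 1.53), and in cDC1, the cross-presenting DC subset, at 98.6 against 164 CPM (ratio 0.74, 0.30 to 1.20). The share of mature DCs with a Tgfb1 UMI was 42.4% (29.6% to 55.9%) and 58.8% (47.6% to 69.4%), and after each cell was thinned to 2000 UMIs it was 8.62% (2.86% to 19.0%) and 20.5% (12.4% to 30.8%). Without mature DCs of mixed lineage the ratio was 0.30, from 19 and 30 UMIs, and regulatory T cell markers summed to 231 and 398 CPM in these DCs. For cDC1 the thinned shares were 19.5% and 18.9%, so the difference in level there did not appear in the share of cells at equal depth, and the ratio itself was 0.045 after thinning. In cDC1 the macrophage markers summed to 91.8 and 488 CPM, the T cell markers to 381 and 662 CPM and the cycling markers to 250 and 750 CPM. The part of such RNA and of depth in the DC values was not tested. For all T cells the ratio was 0.54 (0.43 to 0.65), but the libraries differ in their mix of T cells: naive T cells, where Tgfb1 is low, made up 473 cells in one and 53 in the other. Within subsets the ratio was 0.22 in regulatory T cells (0.00 to 0.44), 0.18 in CD4 effector T cells (-0.09 to 0.45) and 0.32 in cycling T cells (0.11 to 0.53), where it was -0.0057 without the 5% deepest cells. In CD8 effector T cells it was 0.36 (0.12 to 0.60). In the larger of the 2 CD8 clusters, with 511 and 345 cells, it was -0.02 (-0.31 to 0.28).

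Tgfb2, a ligand of epithelial and stromal cells in most tissues, was close to absent. The libraries held 15 and 9 UMIs of it, and 11 and 3 of these were in epithelial tumor cells (12.9 and 2.25 CPM). The ratio of those 2 counts, a log2 of -2.52, had an interval of -5.00 to -0.60 and rests on too few molecules to pass the limit of 30 UMIs set for a comparison. In all macrophages there was 1 UMI per library among 745 and 779 cells.

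Among the sorted cells Tgfb3 was found mainly in C1q macrophages. No cluster of fibroblasts or endothelial cells was found, so those cells of the tumors were not compared. Of 605 and 523 UMIs, 83.3% and 77.1% lay in macrophages. C1q macrophages, which express the complement component C1q and made up 664 and 653 cells, had 57.8 and 45.1 CPM. Cycling macrophages had 32.9 and 8.73 CPM, classical monocytes 10.4 and 14.9 CPM, and all T cells 2.77 and 3.85 CPM. The share of C1q macrophages with a Tgfb3 UMI was 33.9% (30.3% to 37.6%) and 29.1% (25.6% to 32.8%), against 1.08% and 0.494% of CD8 effector T cells. Median depth was 11700 and 12520 UMIs in the former and 5854 and 5909 in the latter, and at 2000 UMIs per cell the shares were 8.71% and 7.68% against 0.368% and 0%.

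The log2 ratio of Tgfb3 was -0.55 in all macrophages (504 and 403 UMIs, -0.75 to -0.36), and it was negative under all 9 alternatives tried, between -0.63 and -0.33. It was -0.36 in C1q macrophages (-0.56 to -0.16), between -0.44 and -0.15 under the alternatives. The -0.15 came with cells thinned to 2000 UMIs and lay just outside the counting interval. In cycling macrophages it was -1.92 (38 and 16 UMIs, -2.86 to -1.04), between -3.12 and -1.02 under the alternatives. The cycling macrophages of the libraries also differed in other markers: the 6 macrophage markers summed to 11390 and 7526 CPM, the 5 regulatory T cell markers to 126.5 and 410 CPM, the 6 monocyte markers to 162 and 354.5 CPM and the 5 mature DC markers to 57.2 and 190 CPM. Their part in the Tgfb3 and Tgfbi values of these cells was not tested. In a small macrophage cluster led by Retnla and Lyz1, with 15 and 49 cells, the library counts were 10 and 2 UMIs, all 10 in a single cell, and no comparison is made. In monocytes the ratio was 0.52 (14 and 58 UMIs, -0.34 to 1.48), and 78.6% of the 14 UMIs came from 5 cells. Without those 5 cells, and the 5 highest in the other library, the monocyte ratio was 2.11 from 3 and 39 UMIs.

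Finer clustering, at resolution 1.6, split the C1q macrophages into 4 clusters. The one led by Mmp12, Mmp13 and Gdf15, with 279 and 237 cells, had the highest Tgfb3 level in both libraries, 88.5 (78.9 to 98.9) and 72.7 CPM (63.8 to 82.5). The one led by Ccl12, Hes1 and Bag3 had 39.2 and 26.6 CPM, and the one led by Ighm, Ccl8 and Ms4a7 had 5.46 and 10.98 CPM from 3 and 7 UMIs. The ratio was -0.28 (-0.53 to -0.04) in the first and -0.56 (-1.05 to -0.08) in the second. In the remaining cluster, led by Gm26917, Igkc and Vcam1, it was -0.04 (-0.60 to 0.54). That cluster had T cell RNA in it, with Cd3e, a T cell receptor subunit, at 196 and 195 CPM against 20.8 and 27.3 CPM in the cluster led by Mmp12.

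**Figure D2:**
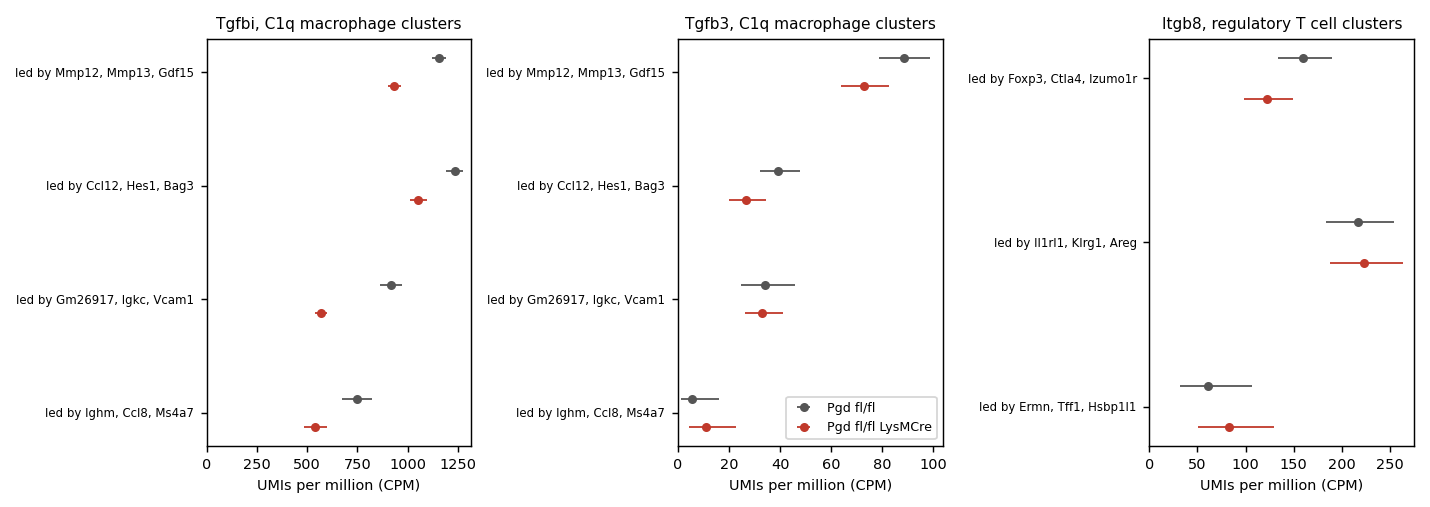
Level in CPM (horizontal axes) of Tgfbi and Tgfb3 in the 4 fine C1q macrophage clusters and of Itgb8 in the 3 fine regulatory T cell clusters, each named by its leading genes; points are the 2 libraries and bars their 95% Poisson intervals. Tgfbi is lower in the LysMCre library in each of the 4 macrophage clusters, Tgfb3 is highest in the cluster led by Mmp12, and Itgb8 is highest in the regulatory T cells led by Il1rl1.

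Itgb8 encodes the integrin chain that pairs with Itgav to free latent TGF-beta, and its product is known on regulatory T cells and some DCs. Here 62.8% and 47.8% of its UMIs were in regulatory T cells, at 186 (165 to 209) and 167 CPM (146 to 190). These levels were far above those of every other type, the next being epithelial tumor cells in the Pgd fl/fl library, at 31.6 CPM, and CD4 effector T cells in the LysMCre library, at 23.6 CPM. An Itgb8 UMI was found in 41.6% (36.6% to 46.8%) and 39.4% (34.2% to 44.8%) of regulatory T cells. It was found in 0 of 558 CD8 effector T cells of the Pgd fl/fl library, which allows a share of up to 0.538%, and in 1 of 405 of the other, although those cells were the deeper of the pair, with medians of 5854 and 5909 against 3454 and 3484 UMIs. Thinned to 2000 UMIs, the regulatory T cell shares were 27.4% and 25.3%. The ratio of the genotypes in regulatory T cells was -0.15, with an interval of -0.41 to 0.10.

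Among the finer regulatory T cell clusters, the one led by Il1rl1, Klrg1 and Areg, genes of tissue-type regulatory T cells, had 217 (183 to 254) and 224 CPM (188 to 264) of Itgb8. The one led by Foxp3, Ctla4 and Izumo1r had 160 (133 to 190) and 122 CPM (98.7 to 150). In the LysMCre library these 2 intervals do not overlap, while in the other library they do. Lrrc32, the surface protein GARP that tethers latent TGF-beta on regulatory T cells, was at 167 and 175 CPM in the first cluster and at 134 and 117 CPM in the second. Over all regulatory T cells Lrrc32 was at 149 and 143 CPM and Itgav, the partner chain, at 466 and 417 CPM. All 3 parts of the activating complex were thus measured in these cells in both libraries, with Lrrc32 at 0.293 and 1.15 CPM in CD8 effector T cells.

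In macrophages Itgb8 was 1 of 8 members with at least 30 UMIs and the only one past 1.5-fold. It was at 4.70 and 9.39 CPM (43 and 101 UMIs), a log2 ratio of 1.00 (0.47 to 1.55). For comparison, 10.0% of 11314 genes passed 1.5-fold in macrophages, 735 higher and 399 lower in the LysMCre library. T cell RNA was higher in macrophages of the LysMCre library too. The 5 regulatory T cell markers summed to 234 and 432 CPM in C1q macrophages, and the 5 general T cell markers to 506 and 691 CPM, with no marker of either list at 0. With macrophages that held 2 or more UMIs of T, B or epithelial markers left out (214 of 745 and 304 of 779 cells), 5 and 3 Itgb8 UMIs were left and the ratio was -0.61. These counts are under the limit of 30 UMIs set for a comparison. In C1q macrophages alone, which are a part of these cells and so under that limit too, the ratio was 0.21 in this setting. The part of T cell RNA in the Itgb8 values was not tested.

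The receptors differed in their spread over cell types. Tgfbr1, the kinase that phosphorylates SMAD2 and SMAD3, was at 213 and 204 CPM in C1q macrophages and 133 and 137 CPM in cycling macrophages. It was at 124 and 87.0 CPM in neutrophils, with 18 and 15 UMIs, and at 75.0 and 77.6 CPM in classical monocytes. Regulatory T cells were at 47.7 and 54.8 CPM and CD8 effector T cells at 9.97 and 11.5 CPM. Some myeloid types were no higher than regulatory T cells. Langerhans-like cells were at 42.6 and 41.1 CPM, and cDC1 at 18.7 and 36.8 CPM. Retnla-led macrophages were at 37.1 and 44.6 CPM, from 4 and 17 UMIs. Mature DCs were at 56.2 and 44.5 CPM. A Tgfbr1 UMI was found in 75.9% and 75.2% of C1q macrophages and in 5.91% and 6.42% of CD8 effector T cells, and at 2000 UMIs per cell in 32.4% and 30.1% against 2.57% and 2.03%. Tgfbr2, the ligand-binding receptor, was flatter. It was at 95.7 and 89.0 CPM in C1q macrophages, 95.6 and 102 CPM in CD8 effector T cells, 87.0 and 119 CPM in naive T cells and 81.3 and 94.1 CPM in B cells. It was low in DCs, at 12.8 and 23.9 CPM in mature DCs and 15.3 and 31.7 CPM in cDC1. Macrophages were thus high in both receptors, while CD8 effector T cells had a Tgfbr2 level close to that of macrophages and little Tgfbr1.

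Neither receptor differed much between the genotypes. In all macrophages the ratio was -0.11 for Tgfbr1 (-0.20 to -0.02) and -0.16 for Tgfbr2 (-0.30 to -0.02), and in monocytes both intervals covered 0. The interval of Tgfbr1 covered 0 in each of the single cell types with at least 30 UMIs. Tgfbr2 was lower in LysMCre cycling macrophages, at 86.7 against 61.1 CPM (ratio -0.50, -0.91 to -0.10), but not with cells thinned to 2000 UMIs (0.05, from 9 and 11 UMIs). In cycling T cells its ratio was 0.40 (0.03 to 0.77).

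**Figure D3:**
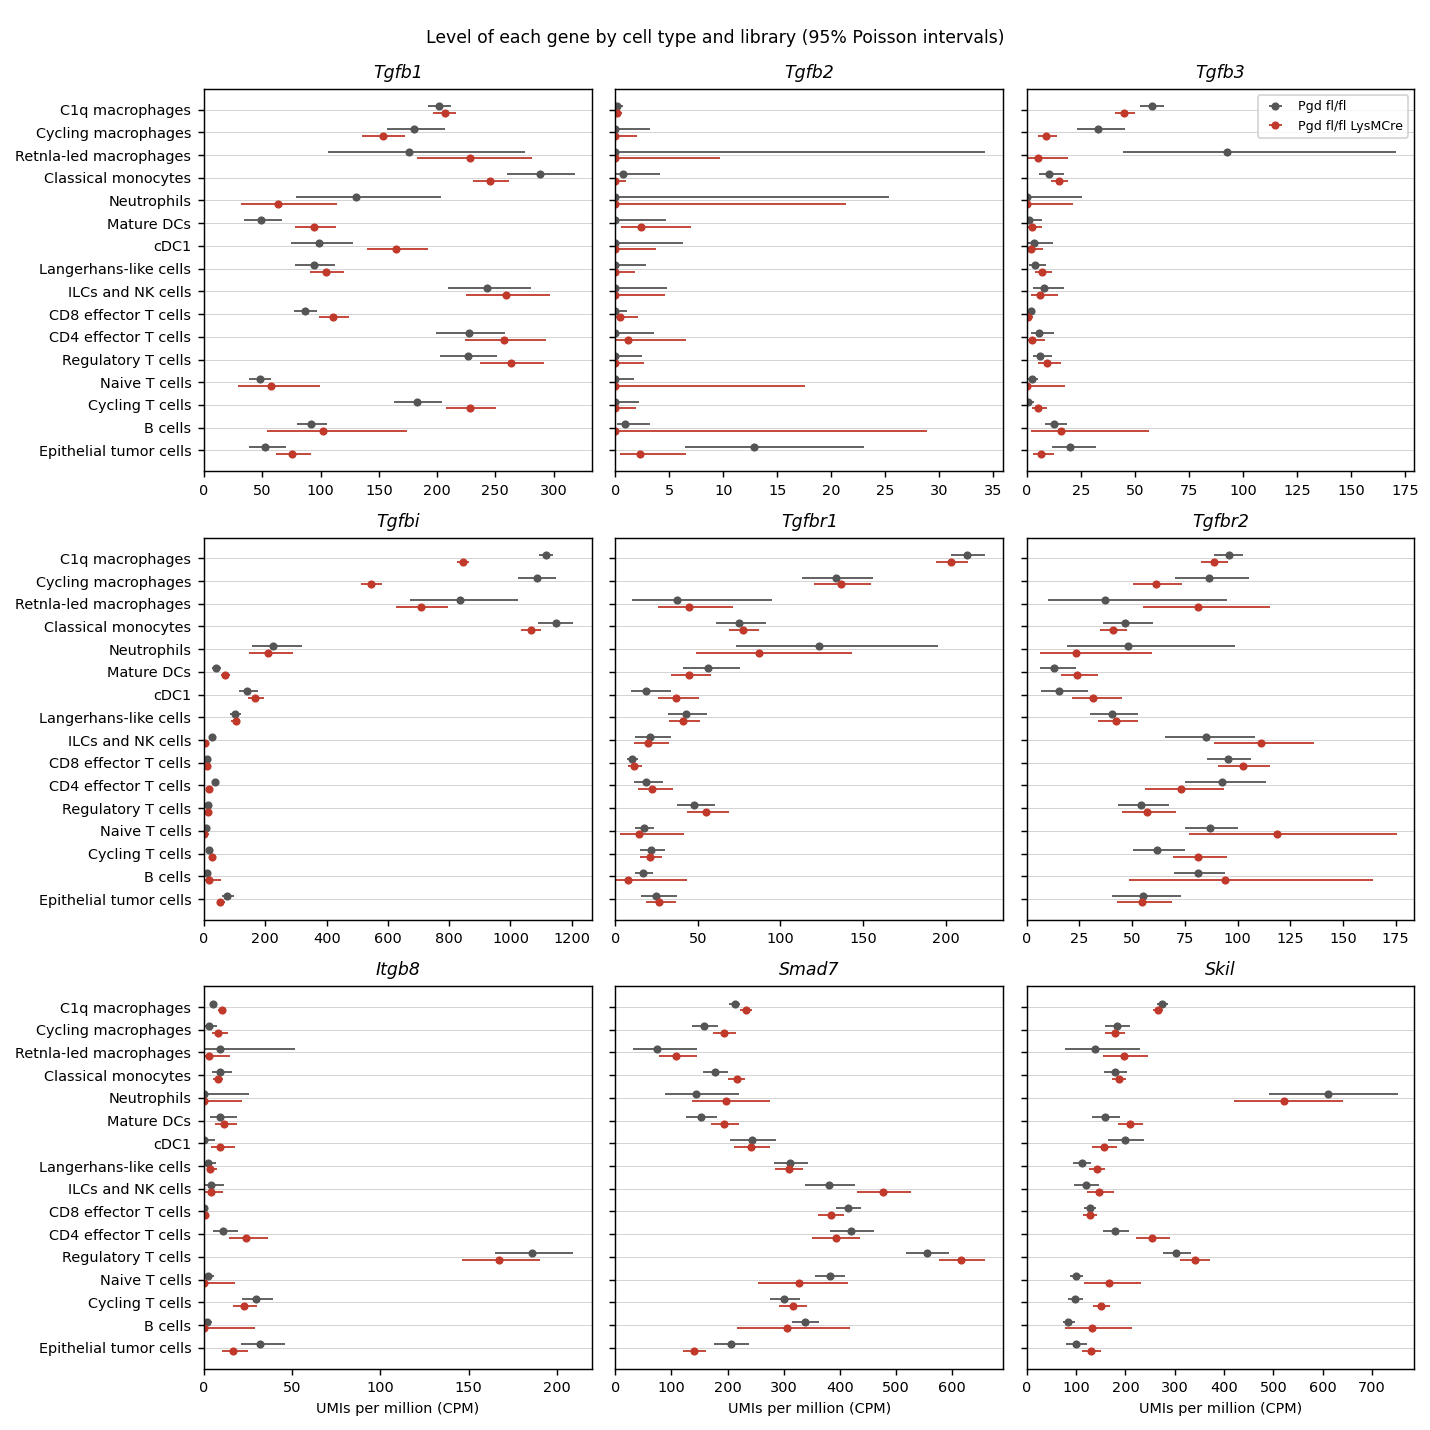
Level of each gene (horizontal axes, CPM; the scale differs between panels) in 16 cell types of both libraries, with 95% Poisson intervals; mast cells and basophils, found in the LysMCre library only, are left out. Tgfbi leads in monocytes and macrophages and Tgfbr1 in macrophages, Itgb8 stands out in regulatory T cells, Smad7 is higher in lymphocytes than in macrophages, and Skil is highest in neutrophils.

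Smad7 and Skil are both feedback inhibitors, the first acting on the receptor and the second on SMAD complexes in the nucleus, yet their patterns differed. Smad7, with 8036 and 7875 UMIs, was highest in regulatory T cells, at 556 (519 to 595) and 617 CPM (577 to 660). It was at 415 and 384 CPM in CD8 effector T cells and 381 and 477 CPM in innate lymphoid and NK cells. Langerhans-like cells had 312 and 309 CPM, C1q macrophages 213 and 233 CPM and neutrophils 144 and 197 CPM. Skil was highest in neutrophils, at 611 (491 to 752) and 522 CPM (420 to 642), then in regulatory T cells, at 304 and 340 CPM, and in C1q macrophages, at 275 and 266 CPM. B cells, at 84.4 CPM, were lowest in the Pgd fl/fl library.

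Smad7 was somewhat higher in the LysMCre library in monocytes (178 and 216 CPM, ratio 0.28, 0.07 to 0.50) and in innate lymphoid and NK cells (0.32, 0.10 to 0.55). The same held for mature DCs (0.35, 0.03 to 0.68) and all macrophages (0.12, 0.03 to 0.21). The macrophage difference was not seen with cells thinned to 2000 UMIs (-0.06). In all T cells the level was 410 CPM in both libraries (0.00, -0.07 to 0.07). In epithelial tumor cells it was lower, at 206 and 140 CPM (-0.56, -0.86 to -0.25), but without cells that carried immune markers the ratio was 0.39, from 29 and 54 UMIs.

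Skil was close in macrophages (262 and 248 CPM, -0.08, -0.16 to 0.00) and monocytes (178 and 187 CPM, 0.07, -0.15 to 0.28). It was higher in several T cell types of the LysMCre library: 180 and 254 CPM in CD4 effector T cells (0.50, 0.21 to 0.79), 97.7 and 151 CPM in cycling T cells (0.63, 0.35 to 0.91) and 99.98 and 166 CPM in naive T cells (0.73, 0.18 to 1.25). The naive T cell value came from 35 UMIs in the LysMCre library, 54.3% of them in 5 cells, and without the 5 highest cells of each library the ratio was -0.02. In CD8 effector T cells Skil was at 127 and 128 CPM (0.00, -0.21 to 0.21).

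Tgfbi, with 12209 and 13330 UMIs, was found mainly in monocytes and macrophages. It was at 1147 and 1066 CPM in classical monocytes, 1116 and 845 CPM in C1q macrophages, 1086 and 545 CPM in cycling macrophages and 835 and 708 CPM in the Retnla-led macrophages. Neutrophils had 227 and 209 CPM, cDC1 141 and 168 CPM and Langerhans-like cells 102 and 103 CPM. CD8 effector T cells had 8.21 and 9.56 CPM, given here as the background of cells not known to make it, and at equal depth 79.8% and 66.1% of C1q macrophages but 1.47% and 2.28% of CD8 effector T cells held a Tgfbi UMI.

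In all macrophages Tgfbi was at 1109 CPM in the Pgd fl/fl library and 789 CPM in the LysMCre library, a log2 ratio of -0.49 (-0.53 to -0.45), short of 1.5-fold. The ratio was -0.40 in C1q macrophages (-0.45 to -0.36), -0.99 in cycling macrophages (-1.12 to -0.87), whose macrophage markers were lower too (11390 and 7526 CPM), and -0.24 in the Retnla-led cluster (-0.59 to 0.12). At the finer resolution it was negative in all 4 C1q macrophage clusters. It was -0.31 in the one led by Mmp12, -0.23 in the one led by Ccl12, -0.69 in the one led by Gm26917 and -0.47 in the one led by Ighm, and each of the 4 intervals lay below 0. Under the 9 alternatives the ratio in all macrophages lay between -0.55 and -0.32. In C1q macrophages it lay between -0.45 and -0.23. The -0.23 came with cells thinned to 2000 UMIs and lay outside the counting interval. The share of C1q macrophages with a UMI at 2000 UMIs per cell, 79.8% (76.5% to 82.8%) against 66.1% (62.2% to 69.8%), gave the same order.

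In the cluster named classical monocytes, the cells that give rise to tumor macrophages, Tgfbi differed little. The ratio was -0.11 (-0.19 to -0.02), and 0.13 without cells that held markers of another lineage. This cluster held macrophage RNA too. The 6 macrophage markers summed to 3190 and 3457 CPM there, and the 6 monocyte markers to 2886 and 2195 CPM. At finer clustering a small group of non-classical monocytes separated from it. The part of this mix in the Tgfbi values was not tested. Whether the ratios of macrophages and monocytes differ beyond the variation between mice was not tested. In mature DCs Tgfbi was at 38.3 and 67.6 CPM (30 and 85 UMIs, ratio 0.82, 0.20 to 1.47), but 95.3% of the 85 UMIs were in 5 cells, and without the 5 highest cells of each library 6 and 4 UMIs were left. In CD4 effector T cells it was lower, at 35.8 and 15.3 CPM from 37 and 13 UMIs (-1.22, -2.26 to -0.28). Macrophage markers were lower in these T cells as well, at 407 and 278 CPM summed, and the lipid-associated macrophage markers were at 744 and 426 CPM.

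**Figure D4:**
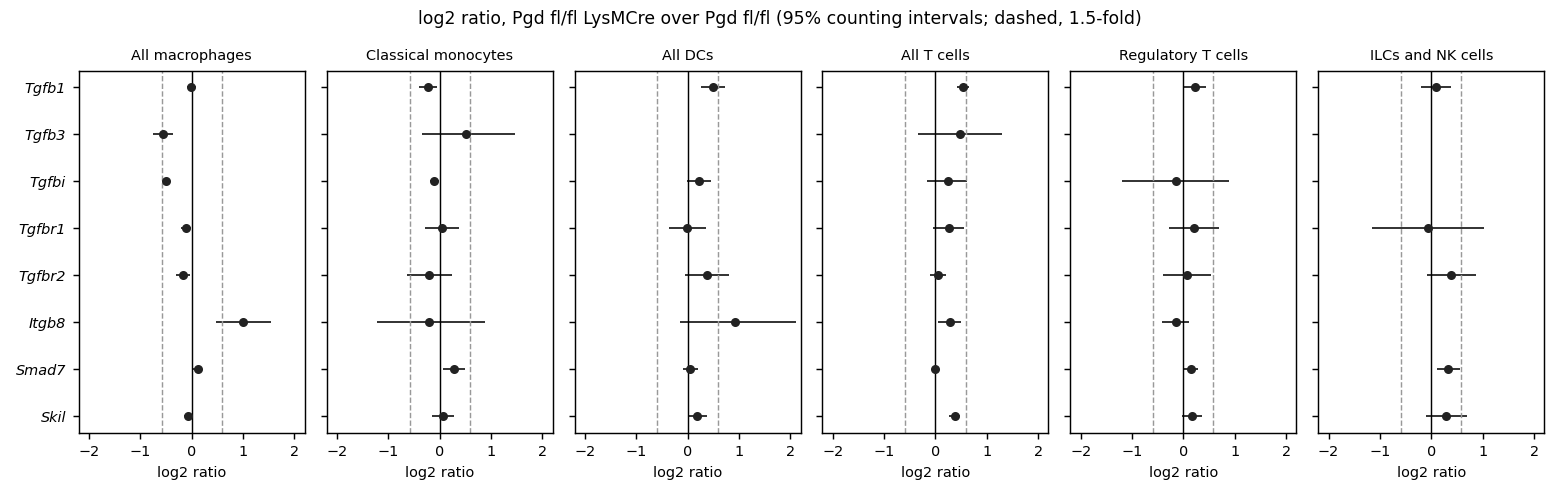
log2 ratio of Pgd fl/fl LysMCre over Pgd fl/fl (horizontal axes) for 8 genes in 6 cell classes, with 95% counting intervals; dashed lines mark 1.5-fold, and genes with under 30 UMIs in a class are not drawn. In macrophages Tgfb3 and Tgfbi lie left of 0 and Itgb8, left with 5 and 3 UMIs without mixed-lineage cells, lies right of 0; in the other classes each point except Itgb8 in DCs lies inside 1.5-fold.

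Counted by class, few members passed 1.5-fold. In macrophages it was 1 of 8 with enough UMIs, Itgb8, and the median of the 8 ratios was -0.09 beside 0.07 for all genes tested. In classical monocytes it was 0 of 8, where 15.2% of 8500 genes passed. In all DCs it was 1 of 7, again Itgb8 with 10 and 30 UMIs, where 10.4% of 9320 genes passed. In all T cells it was 0 of 8 (10.9% of 10794 genes), in regulatory T cells 0 of 7 (10.6% of 6973) and in innate lymphoid and NK cells 0 of 5 (14.3% of 5244). The members' counts were thus near or under the share of all genes in every class. With at least 100 UMIs required, 5.62% of macrophage genes passed.

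The other pathway genes were followed in 5 lists with 54 genes in all. Of all 11314 genes with enough UMIs in macrophages, 10.0% passed 1.5-fold. In macrophages, 11 of 16 genes for ligand storage and activation had enough UMIs, and 2 were past 1.5-fold, both higher in the LysMCre library: Itgb3, an integrin chain (2.51 and 5.21 CPM, ratio 1.05, 0.33 to 1.82), and Ltbp3, a latent ligand binding protein (2.08 and 3.26 CPM, 0.65, -0.20 to 1.54). Itgav, the shared integrin chain, was at 98.2 and 144 CPM (0.55, 0.43 to 0.67), just short of the limit. Nrros, which anchors latent TGF-beta on macrophages and was named after its value was seen, was at 122 and 88.6 CPM (-0.46, -0.59 to -0.33). The list's median ratio was 0.09, beside 0.07 for all genes.

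In macrophages, where 10.0% of all genes passed 1.5-fold, 11 of the 12 inhibitors had enough UMIs, with 1 higher and 1 lower past it. These were Tgif2, a transcriptional corepressor (1.86 and 2.88 CPM, 0.64, -0.26 to 1.58), and Smad6 (5.68 and 3.44 CPM, -0.72, -1.37 to -0.09). Pmepa1, a membrane protein strongly induced by TGF-beta that then restrains it, had the most UMIs of the 3 named by size, at 594 and 439 CPM (5438 and 4716 UMIs, -0.44, -0.49 to -0.38). It thus stood lower in LysMCre macrophages by an amount close to that of Tgfbi. In monocytes Pmepa1 was at 157 and 174 CPM (0.14, -0.08 to 0.37). Among monocyte inhibitors Bambi, a pseudoreceptor, had 10 and 47 UMIs (0.70, -0.30 to 1.85), Fkbp1a a ratio of 0.44 (0.17 to 0.71) and Smurf2 one of -0.16 (-0.78 to 0.48).

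Of the 16 targets, 13 had enough UMIs in macrophages, with 2 past 1.5-fold, both higher in the LysMCre library: Fn1, encoding fibronectin (26.9 and 77.4 CPM, 1.53, 1.32 to 1.74), and Itgae, the integrin chain CD103 (29.3 and 60.6 CPM, 1.05, 0.84 to 1.26). In C1q macrophages alone Fn1 was at 6.59 and 13.2 CPM (52 and 113 UMIs, 1.01, 0.52 to 1.51). Fn1 is among the genes that lead the Retnla cluster, which had 15 and 49 cells. The part of that cluster in the Fn1 value of all macrophages was not tested. Itgae was at 520 and 499.7 CPM in regulatory T cells and 228 and 242 CPM in CD8 effector T cells, and in C1q macrophages, where it was at 26.3 and 52.6 CPM, the regulatory T cell markers summed to 234 and 432 CPM and the T cell markers to 506 and 691 CPM. The part of T cell RNA in the Itgae value was not tested. Nedd9, an adaptor protein, followed with 0.54 (0.32 to 0.77). The median over the list was 0.13, and 10.0% of all genes passed 1.5-fold in macrophages. In monocytes Fn1 went the other way, at 134 and 62.9 CPM (-1.10, -1.38 to -0.81). Rhob, a small GTPase, was lower there too (411 and 278 CPM, -0.57, -0.71 to -0.41), while Id1, an inhibitor of DNA binding, was higher (24.5 and 42.6 CPM, 0.80, 0.25 to 1.38).

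All 5 signal transducers and 4 of the 5 related receptors had enough UMIs in macrophages. Where 10.0% of all genes passed 1.5-fold, 1 of these genes passed it. This was Zfyve9, the anchor that presents SMADs to the receptor, at 5.24 and 8.56 CPM (0.71, 0.19 to 1.24). Trim33 had a ratio of 0.27 and Smad3 one of 0.23, and both of these intervals covered 0. Of the receptors, Acvrl1 had a ratio of -0.24 (-0.40 to -0.07), Acvr1b one of 0.06 and Eng one of 0.05. In monocytes the intervals of Zfyve9, Trim33, Smad2, Acvrl1, Eng and Acvr1b all covered 0. In the activation list Mmp14 had a monocyte ratio of 0.35 (0.06 to 0.65), Furin 0.29 (0.07 to 0.52) and Itgb3 0.47 (-0.56 to 1.63).

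Genes whose levels followed those of a member over the 33 combinations of cell type and library were listed by Pearson's r of log2(CPM + 5), as a description over 10199 genes with at least 200 UMIs. The points share their 2 libraries and the cell types share lineages, so high values are easy to reach. Tgfbi was closest to Cd68 (r = 0.95), a macrophage marker, then Hexa and Cd300c2. Tgfbr1 was closest to Creg1 (0.91), Fth1 and Lst1, Itgb8 to Pcsk1 (0.88), Neb and Ankrd55, and Smad7 to Gimap5 (0.86), Gimap1 and Rsbn1l. Skil was closest to Slc16a3 (0.85), a lactate transporter, then Srgn and Cmip, and Tgfb3 to Fmn1 (0.79), Tmem119 and Kctd6. For Tgfb1 (Tmem50a, 0.79) and Tgfbr2 (Ifi206, 0.74) the best values were lower. Among the members, Tgfbi and Tgfbr1 were the most alike (0.78) and Tgfbi and Smad7 the most opposed (-0.73).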

How the data were processed

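Tumor cells of 10 mice per genotype were pooled, tagged with oligos and sequenced on the 10x platform. Per the labels, the authors made the deposited UMI counts per gene and barcode with Cell Ranger 6.1.2 on mm10, and used Seurat. UMIs are counted once per molecule, and the files give no reads. The cells kept here number somewhat more than the study states for both genotypes, although its gene and mitochondrial limits were applied, and M-MDSCs were not separated.

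Counts were clustered with Seurat 5.3.0 (2000 variable genes without the 9 members, 30 components, resolution 0.8). Clusters were named from marker lists, at least 3 of which had to be found in 25% of cells. The limits of naming were set after clusters were seen. No doublet caller was used. UMIs were summed per cell type and library, and given per 1000000 with exact Poisson intervals. Log2 ratios have exact conditional intervals, shares have Clopper-Pearson intervals, all at 95%, and a count of 0 was read against 3 counts. A ratio needed 30 UMIs over both libraries, and 1.5-fold was the limit for a call. Thinning drew 2000 UMIs per cell and left out 137 and 147 shallower cells. Kept cells held 26959415 and 28447905 UMIs. Ratio intervals were tested on simulated data. Python 3.11.15, scipy 1.17.1 and, for scaling factors only, edgeR 4.0.16 were used.

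The members and lists were chosen with earlier results of these data known. Named beside the members were the 3 genes of each pathway list with the largest ratio in macrophages and in monocytes among those with 30 UMIs, and the 3 most similar genes per member. Alternatives were other clusterings (resolution 0.4 and 1.6, members kept), at most 10% mitochondrial UMIs, thinning, leaving out mixed-lineage cells (2 UMIs of another lineage) or the 5% deepest cells, cells weighted equally, 100 UMIs or 2-fold as the limit, and TMM scaling. Leaving out the 5 cells with the most UMIs of a gene was chosen after seeing the data.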

Additional observations from a re-analysis of the deposited data

Results flagged for a closer look

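For 5 members the counting intervals of the genotype ratio lay on opposite sides of 0 in a pair of cell types. With 1 library per genotype the difference between the cell types was not tested. Tgfb1 was higher in LysMCre mature DCs (log2 ratio 0.96, and 0.30 without cells of mixed lineage) and lower in classical monocytes (-0.23). Tgfbi was higher in mature DCs (0.82), where 5 cells held most of its UMIs, and lower in cycling macrophages (-0.99). Tgfbr2 was higher in cycling T cells (0.40) and lower in cycling macrophages (-0.50). In the latter it was 0.05 with cells thinned to 2000 UMIs, from 9 and 11 UMIs. Itgb8 was higher in C1q macrophages (1.01), where regulatory T cell markers were higher too. It was lower in epithelial tumor cells (-0.94), with 27 and 22 UMIs, but thinning gave 0.86 there from 2 and 5 UMIs. Smad7 was higher in innate lymphoid and NK cells (0.32) and lower in epithelial tumor cells (-0.56). The epithelial ratio changed sign with thinning (0.07) and without cells of mixed lineage (0.39).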

How the results depend on the processing

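No paired analysis was possible because each genotype has 1 library. Of 1229 values of 141 ratios under the alternatives, 1120 stayed within the counting interval, 89 moved outside it and 20, where the interval had left out 0, changed sign. The cause of these moves was not tested. With 1 library per genotype, differences between mice cannot be told apart from those between genotypes, and genes with few UMIs have wide intervals.

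With cells thinned to 2000 UMIs, ratios in all macrophages were -0.17 for Tgfb1, -0.33 for Tgfb3, -0.32 for Tgfbi, -0.21 for Tgfbr1 and -0.064 for Smad7, and Smad7 was at -0.090 in C1q macrophages. In the same setting Tgfbr2 was at 0.045 in cycling macrophages, Tgfbi at -0.19 and Skil at 0.49 in monocytes, Skil at -0.10 in mature DCs and Tgfb1 at -0.10 in CD8 effector T cells. In epithelial tumor cells thinning gave -0.29 for Tgfb1, 0.54 for Tgfbi, 0.86 for Itgb8 and 0.071 for Smad7.

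Without cells of mixed lineage, all macrophages had -0.34 for Tgfbi and -0.61 for Itgb8, monocytes -0.42 for Tgfb1, 1.6 for Tgfb3 and 0.13 for Tgfbi, mature DCs -0.24 for Tgfbi, and epithelial tumor cells 0.078 for Tgfbi and 0.39 for Smad7. Without the 5% deepest cells, Tgfbi was at -0.44 in all macrophages and -0.050 in cycling T cells, and Tgfb1 at -0.0057 in cycling T cells and -0.26 in epithelial tumor cells. TMM factors gave -0.55 for Tgfbi in all macrophages, resolution 0.4 gave 0.46 for Itgb8 there, and keeping the members among the variable genes gave -0.042 for Tgfb1 in CD8 effector T cells. Without the 5 cells with the most UMIs, an alternative chosen after seeing the data, monocytes had 2.11 for Tgfb3 and 2.44 for Itgb8, mature DCs -1.29 for Tgfbi and naive T cells -0.022 for Skil.

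With at least 100 UMIs, the percent of genes past 1.5-fold was 5.62 in macrophages, 6.96 in monocytes and 4.01 in DCs. It was 6.05 in T cells, 2.595 in regulatory T cells and 4.175 in innate lymphoid and NK cells. Past 2-fold it was 2.84, 4.33, 2.65, 2.79, 1.75 and 2.73 in the same order.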

Other observations

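At the finer clustering, a small group of non-classical monocytes, patrolling cells led by Chil3, Ifitm6 and Ace, separated from the classical ones, with 22 and 45 cells. Chil3 is also on the marker list of classical monocytes. The Tgfb1 level of this group lay above that of every cell type in the report, at 508 (399 to 638) and 413 CPM (340 to 496). The next in the LysMCre library, mast cells and basophils, was at 334 CPM from 38 UMIs. The group had Tgfbi at 687 and 507 CPM. Its Smad7 level was 34.3 and 109 CPM, from 5 and 30 UMIs.

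Itgav, the partner chain of Itgb8, was also higher in CD8 effector T cells of the LysMCre library, at 21.7 and 49.7 CPM (74 and 130 UMIs, log2 ratio 1.20, interval 0.77 to 1.63), and this gene and cell type were chosen after their values were seen. Macrophage markers summed to 96.8 and 190 CPM and regulatory T cell markers to 216 and 327 CPM in the same CD8 cells, and their part in the Itgav value was not tested. In regulatory T cells Itgav was at 466 and 417 CPM, and Ski, a relative of Skil, at 79.9 and 123 CPM (0.63, 0.28 to 0.98). The macrophage cluster led by Ighm at resolution 1.6 held 6750 CPM of Ighm, an antibody heavy chain, in the Pgd fl/fl library and 113 CPM in the other, which had 35 B cells against 566. Smad7 in that cluster was at 133 and 229 CPM and Foxp3 at 34.6 and 97.2 CPM, and the part of other cells' RNA in these values was not tested.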
